A study of Mus musculus with 24 samples.

Results

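The genes of the translation machinery were followed through an AGO2 binding map of activated T helper (CD4+) cells. They were taken by symbol: Rpl or Rps followed by a digit for the ribosomal proteins of the cytosol, Eif for initiation factors, Eef for elongation factors and Mrp for the mitochondrial ribosome, with the S6 kinases (Rps6k) left out. The rule found 130 peaks in 73 genes, of 14634 peaks in 4165 genes in all. The symbol rule also takes in genes that only share the prefix. Those kept apart below as Eif-named regulators are the Argonautes under their older symbols Eif2c1, Eif2c2 and Eif2c3, the eIF4E transporter Eif4enif1, the stress kinase Eif2ak3 (PERK) and Eif1ad.

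The study profiled C57BL/6 mice of the wild type and miR-155 knockouts. This microRNA is processed from the Mir155 host transcript, which lymphocyte activation switches on. The cells, isolated from lymph nodes and spleen, were cultured for 4 days after stimulation with antibodies to CD3 and CD28 at 1 µg/mL, with IL-2 at 20 U/mL, and the labels name no further allele, Cre or transgene. HITS-CLIP crosslinks RNA to protein with ultraviolet light, precipitates AGO2 and sequences the RNA fragments it holds. There were 12 libraries per genotype, 6 on each of the 2 sequencing linkers. Within each genotype the linkers were split evenly, so linker and genotype can be told apart in the design, although the table analysed here pools the libraries.

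The authors' deposited table gives 1 scaled read value per genotype and peak. A replicate error and the sequencing depth are therefore unknown for every value below, and a difference between the genotypes can be set only against the deposited p-value. Read values are scaled reads pooled over a genotype, and the log2 ratio is wild type over knockout after adding 1 to each, so positive values mean fewer reads in the knockout. AGO2 reads reflect both how much of a transcript is present and how much of it is bound, and these cannot be told apart here. Of the 10 T cell marker genes listed, 9 had peaks, with 7368 wild-type and 9319 knockout reads. Among B cell markers 1 of 6 genes had a peak (10.5 and 1.83 reads), and among myeloid markers 1 of 6 (122 reads in wild type, listed at 0 in the knockout), while the 5 CD8 and natural killer cell genes and the 5 erythroid and platelet genes had none. The part of these other cells in the results was not tested.

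Ribosomal protein and elongation factor mRNAs are among the most abundant in a dividing cell. They begin with a run of pyrimidines, the TOP motif, through which the kinase mTORC1 sets their translation. Those of the ribosomal proteins tend to have very short 3′ UTRs. Initiation factors load the small subunit onto the capped end of the mRNA and find the start codon, elongation factors deliver aminoacyl-tRNAs and move the ribosome, and the mitochondrial ribosome makes the few proteins encoded in mitochondrial DNA. AGO2 is the protein that carries a microRNA to its target, usually to a match in the 3′ UTR of the microRNA seed, bases 2 to 8.

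The sequences that the results turn on are of 2 kinds. The first are the ends of ribosomal protein and elongation factor transcripts. They are shown because well-read peaks of these classes, taken with their flanks, held the hexamer AATAAA, the signal that directs cleavage and polyadenylation. Each window below is 30 bases of a peak with its flanks, 5′ to 3′ on the strand of the mRNA, and the capitals mark the hexamer. In Rpl4 the hexamer runs into the flank after the peak.
Rpl13: ttggagagctgcAATAAAttttccataaag
Rps3: ctggaggcatttAATAAAataaagacattt
Rpl4: agtagagaccgcatatttcAATAAAtcaaa
Eef1b2: tcagtgcacttaAATAAAagcttgaaagat
By exact match to GRCm38 with GENCODE M21, all 4 lie in the 3′ UTR of the last exon. The Rpl13 window is at chr8:123105210-123105239, in exon 6 of 6. The Rps3 window is at chr7:99478905-99478934 on the minus strand, in exon 7 of 7. The Rpl4 window is at chr9:64178476-64178505, in exon 10 of 10, and the Eef1b2 window at chr1:63179625-63179654, in exon 6 of 6. The genes other than Rps3 are on the plus strand.

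The second kind are matches to T cell microRNAs in peaks of the translation factors, the Argonautes and 2 ribosomal protein genes, shown because they are where AGO2 reads and a microRNA match coincide. Capitals mark the match: the complement of seed bases 2 to 7 or 2 to 8, with, in some, an A opposite base 1, which need not pair. The miR-181 match begins in the flank of its peak.
Eif4g2 peak 4, miR-17: ctgaatactgtagagatGCACTTTgctcag
Eif4g2 peak 5, miR-25/92: ttgagttgtTGCAATAtttgattatccatt
Eif4g2 peak 6, let-7: tgcctgtatttCTACCTCtagtaatgggct
Eif2c2 peak 16, miR-181: agtTGAATGTAccggcttagccaaatcact
Eif2c2 peak 17, let-7: atgcataaaagCTACCTCtgacttctcata
Eif2c2 peak 3, miR-15/16: cttctcttgtgTGCTGCTctgtgctctgtg
Mrps6 peak 1, miR-15/16: agggcactatgggTGCTGCTAggttgttgt
Rpl15 peak 1, miR-25/92: gtagaagttaaGTGCAATAattgaaaactg
The Eif4g2 windows lie within chr7:111072196-111072348, minus strand, in the 3′ UTR of exon 22 of 22. The Eif2c2 windows of peaks 16 and 17 lie at chr15:73101776-73101805 and chr15:73101713-73101742 and that of peak 3 at chr15:73105299-73105328, all on the minus strand in exon 19 of 19. The Mrps6 window is at chr16:92111963-92111992, plus strand, in exon 3 of 3, and the Rpl15 window at chr14:18268865-18268894, minus strand, in exon 4 of 4. The mature microRNAs, from RefSeq's mouse annotation on GRCm38.p6, follow with the seed in capitals. No 2 of these seeds are the same.
miR-155-5p: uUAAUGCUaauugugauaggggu
miR-17-5p: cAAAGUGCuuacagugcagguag
miR-92a-3p: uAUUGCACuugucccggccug
let-7a-5p: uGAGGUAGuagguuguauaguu
miR-181a-5p: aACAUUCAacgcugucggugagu
miR-16-5p: uAGCAGCAcguaaauauuggcg

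None of the 130 translation gene peaks passed the test for a difference between the genotypes. After Benjamini-Hochberg adjustment of the authors' deposited p-values over all peaks, at a threshold of 0.05, 0 of 130 were lower in the knockout against 84 of 14634 peaks in all (0.574%), and 0 were higher against 4 in all (0.0273%). A count of 0 among 130 peaks is near this background and is no result about these genes. At an unadjusted deposited p below 0.05 there were 2 of 130 (1.54%), against 615 of all peaks (4.2%). Both of the 2 were higher in the knockout, where the background of such peaks was 1.48%, and 0 were lower, where it was 2.72%. In the authors' deposited table the smallest p belonged to peak 1 of Mrps6, a small-subunit protein of the mitochondrial ribosome (p = 0.0144, adjusted p = 0.708 by Benjamini-Hochberg), with 5.28 wild-type and 16.7 knockout reads. Next came Eif4e2, the cap-binding protein 4EHP that represses initiation (p = 0.0455 in the authors' deposited table, adjusted p = 1), listed at 0 in wild type and at 7.91 in the knockout. Among the 10 smallest values in the authors' deposited table were also Eif2c2 peak 9 (p = 0.0942), Eif4g2 peak 8 (p = 0.174) and Eif1, a start codon selection factor (p = 0.183), each listed at 0 in wild type and below 5 reads in the knockout.

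No peak of the 130 held the letters AGCATTAA, AGCATTA or GCATTAA, which pair with 8 or 7 bases of miR-155, on the strand of the mRNA, and none held the 6 letters GCATTA. Over all peaks 265 held a match of 7 or 8 letters (1.81%) and 367 held at least the 6 (2.51%).

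Genes of the wider translation pathway were also looked at. They were listed with earlier results of these data known, so they are no independent comparison. A list of 110 further genes held poly(A)-binding proteins and their partners, release factors, mTOR pathway genes, tRNA synthetases, ribosome assembly factors and others. Of the 110, 43 had peaks, 153 in all. Of these 153 peaks, 2 were lower in the knockout and 0 higher by adjusted p, against 0.574% and 0.0273% of all peaks. The 2 were peak 1 of Rheb, the GTPase that activates mTORC1, with 128 wild-type and 12.6 knockout reads, and peak 3 of Rps6ka3. The latter, the kinase RSK2, whose prefix the symbol rule leaves out, had 79.8 and 4.51. Both peaks held a match to miR-155, and they were the 2 peaks of the list that did. Counted by reads the leading genes of that list were Rictor (711 and 881), Rheb (439 and 250.0), Larp4b (340.3 and 327), Pdcd4 (167 and 238) and Ddx3x (199.8 and 143).

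**Figure D1:**
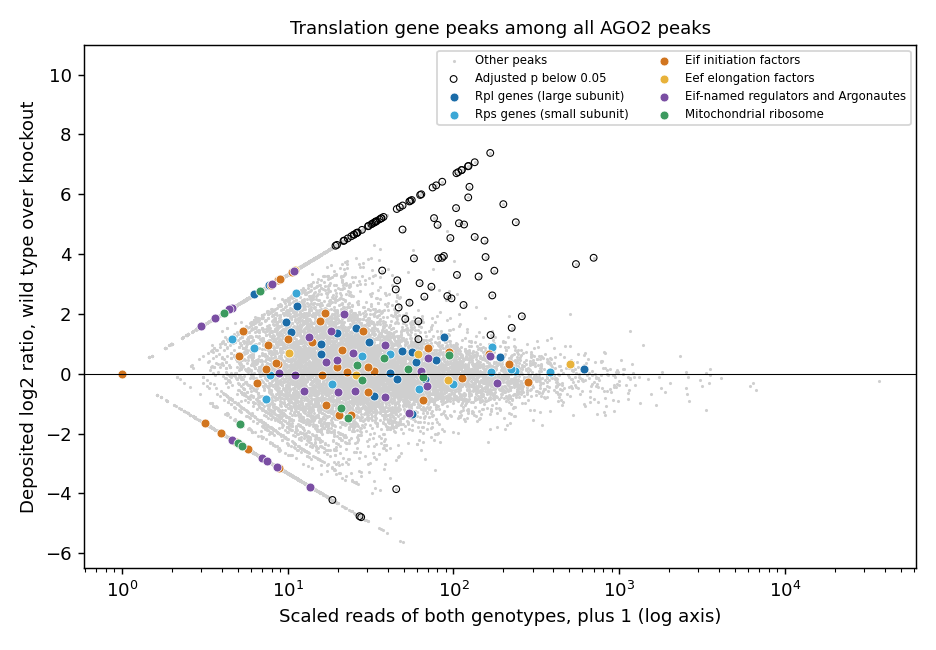
Each point is 1 AGO2 peak, with scaled reads of both genotypes plus 1 on a log axis against the deposited log2 ratio of wild type over knockout, and colours mark the translation gene classes among the other peaks in grey. Black rings mark the 88 peaks with an adjusted p below 0.05, and none of the 130 coloured points carries one.

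As a group the translation genes held 3456 wild-type and 2986 knockout reads, 0.865% of all scaled reads. Their peaks had a median log2 ratio, wild type over knockout, of 0.32 (quartiles -0.34 and 1.14), against 0.20 over all peaks, and 81 of 130 (62.3%) had more reads in wild type, against 56.4% of all. Among peaks with at least 20 reads the median was 0.15 over 60 peaks, against -0.00 over 6597. Centred on the median of all peaks, the translation gene median was 0.12. Of the 130 peaks 17 were listed at 0 in the knockout, 14 in wild type and 1, in Eif5b, in both. Ratios between such values are not given as folds.

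Of the 60 peaks with at least 20 reads, 9 (15%) differed by a log2 ratio of 1 or more in size, 5 toward wild type and 4 toward the knockout, against 24.01% of all peaks with that many reads. The deposited p did not follow the size of these ratios. Rpl39, a small protein of the peptide exit tunnel, had 19.0 wild-type and 5.93 knockout reads and p = 0.939 in the authors' deposited table, while Eif4g1, the scaffold of the cap-binding complex, had 4.44 and 3.34 and p = 0.152 there. The spread between libraries behind these p-values is not in the table. Toward wild type the highest ratio at that many reads was that of Eif2c2 peak 7, which is given below, as is Eif3f. Further peaks among the highest included Rpl10a peak 1 (61.4 and 25.4) and Rpl15 peak 2 (20.6 and 9.34). Eif1b peak 1 (44.6 and 24.3) and Rpl38 (30.2 and 17.6) were also among them. Toward the knockout such peaks included Eif2a peak 5 (22.7 and 42.1) and Rps3, which lines the mRNA entry channel (25.1 and 36.1).

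**Figure D2:**
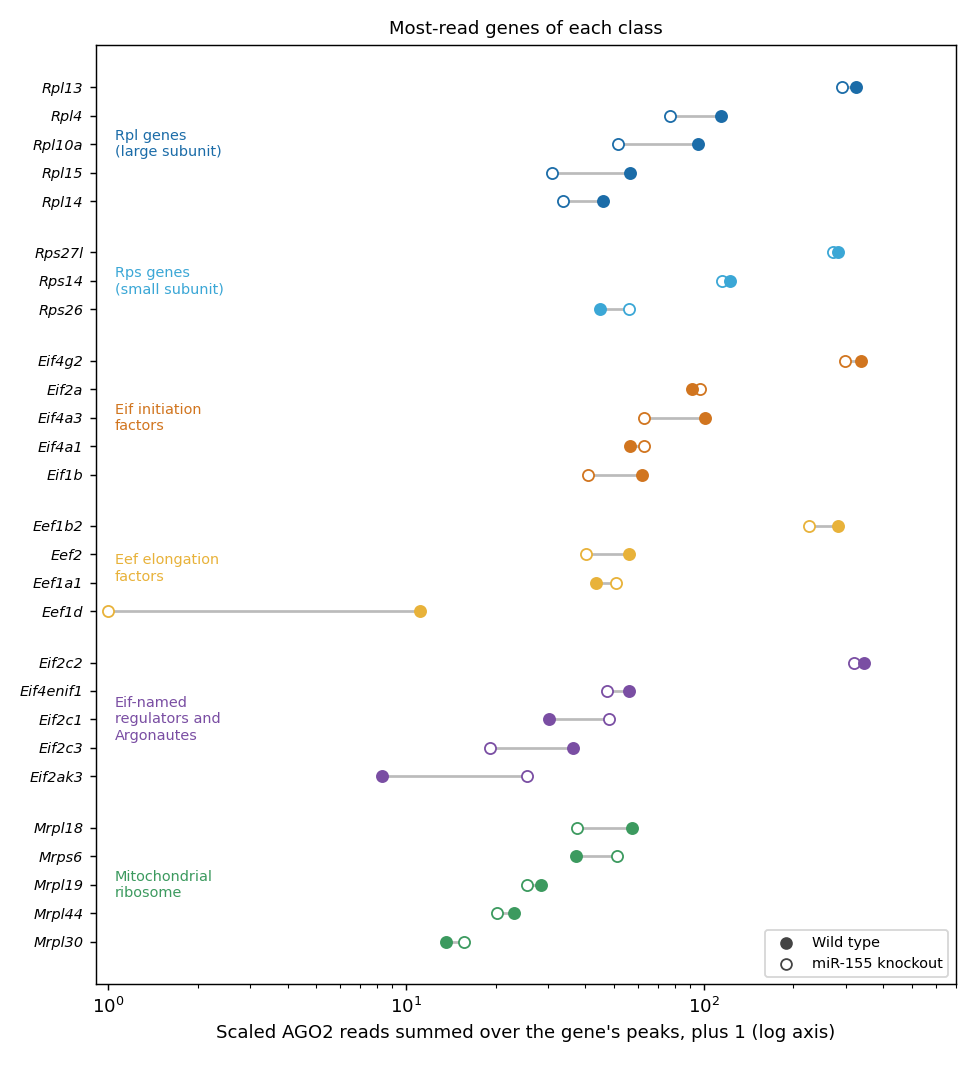
Scaled AGO2 reads summed over each gene's peaks, plus 1 on a log axis, for the most-read genes of each class (up to 5, of which 3 are drawn for the small subunit), with filled circles for wild type and open circles for the miR-155 knockout. The circles of Rpl13, Rps27l, Eif4g2, Eef1b2 and Eif2c2 lie above 200 reads in both genotypes, and Eef1d is listed at 0 in the knockout.

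Among the large-subunit proteins, AGO2 reads were concentrated in Rpl13, a structural protein of the 60S subunit. It had a single peak with 322 wild-type and 291 knockout reads (log2 ratio 0.15). This was more than 3 times the total of the next gene, Rpl4, whose product lines the exit tunnel, with 113 and 76.1. Rpl10a, a protein of the mobile L1 stalk, followed with 94.8 and 50.4 over 2 peaks, both with an exact copy in the pseudogene Rpl10a-ps1, so its reads may be shared, then Rpl15 with 55.5 and 29.97 over 2 peaks and Rpl14 with 45.0 and 32.7. All 5 had more reads in wild type. Per 100 nucleotides of peak the order was Rpl13 (1532 reads), Rpl4 (419.75), Rpl14 (243), Rpl10a (202) and Rpl15 (89.0).

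The class as a whole leaned the same way. Its 23 peaks in 19 genes showed a median log2 ratio of 0.75 (with quartiles of 0.28 and 1.47), and 19 of 23 (82.6%) had more reads in wild type, against 56.4% of all peaks. Over the 14 peaks with at least 20 reads the median was 0.43, with 10 of 14 toward wild type. The smallest p among the 23 in the authors' deposited table was 0.178, for Rpl22, listed at 5.28 in wild type and at 0 in the knockout. The peaks that went the other way included Rpl7l1, a nucleolar relative of Rpl7 and not a subunit of the mature ribosome (15.2 and 39.8 reads, log2 ratio -1.33), Rpl12 peak 1 (11.7 and 20.4, -0.75) and Rpl26 (31.2 and 35.4, -0.18). Counted toward wild type is the pseudogene Rpl34-ps1 (9.23 and 1.11, 2.27), which the symbol rule placed here. Its core sequence has an exact copy in Rpl34, so its reads may be shared.

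The small-subunit class was led by Rps27l, a close relative of Rps27 that p53 can induce. Its 2 peaks held 281 wild-type and 269.7 knockout reads, a log2 ratio of 0.06, and its larger peak, at nucleotides 82 to 116 of the 3′ UTR, held 69.6% of them. Rps14, which sits by the decoding platform, had 122 and 114 reads (0.10). Rps26, which sits near the mRNA exit channel, had 43.8 and 55.2 (-0.33), more in the knockout.

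The class median over 15 peaks in 13 genes was 0.10 (quartiles -0.18 and 0.76), below that of the large subunit, and 10 of 15 had more reads in wild type. The difference between the 2 subunits was not tested, because no value per library is given. The largest ratio was that of Rps12, with 9.59 and 0.634 reads and p = 0.103 in the authors' deposited table. The symbol rule placed here Rps19bp1, which binds Rps19 and is not a ribosomal protein (1.98 and 4.39 reads).

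Most AGO2 peaks on ribosomal protein mRNAs lay close to the stop codon, in short 3′ UTRs. The 38 peaks of both subunits started at a median of nucleotide 11 of the 3′ UTR, against nucleotide 880 for all peaks, and 19 of 38 (50%) started exactly at nucleotide 11, against 416 of 14634 (2.84%). Nucleotide 11 stands out in the table as a whole: no peak of any gene starts at nucleotides 6 to 10 or 12 to 15, and 27 start at nucleotides 2 to 5. A start at 11 is therefore not read here as the edge of binding. The median 3′ UTR of the 31 annotated genes here was 95.5 nucleotides long, against 1249 over all genes with peaks.

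**Figure D3:**
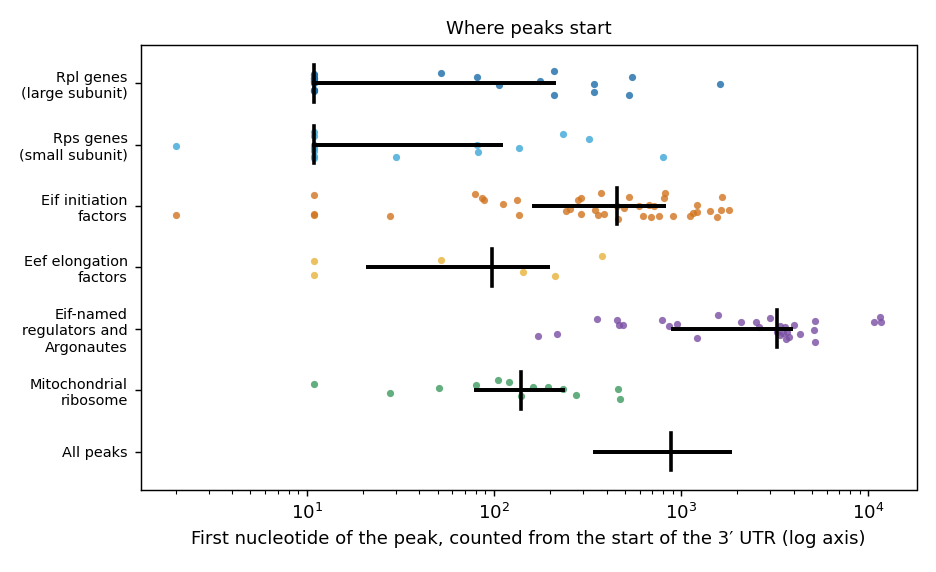
First nucleotide of each peak, counted from the start of the 3′ UTR on a log axis, by class of translation gene. Points are peaks, the long bar spans the quartiles and the short bar is the median; the medians are 11 for both ribosomal classes, 3236 for the Eif-named regulators and 880 for all peaks, whose points are not drawn.

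These peaks often reached the polyadenylation signal, and some the tail itself. AATAAA or its common variant ATTAAA, searched on the mRNA strand, was in 26 of the 38 sequences (68.4%), against 2003 of all peaks (13.7%), and AATAAA alone was in 57.9% against 9.57%. A deposited sequence ended in a run of at least 7 A in 12 of 38 (31.6%), against 207 of all peaks (1.41%). The Rpl13 peak spans nucleotides 11 to 50 of a 3′ UTR whose annotated length is 42, and its deposited sequence ends in 18 A.

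The hexamer was then counted beside peaks of other genes, first by start position and then by annotated 3′ UTR length. Of the 25 cytosolic ribosomal protein peaks that start within the first 100 nucleotides, 22 held it (88.0%), against 122 of the 1063 peaks of other genes that start there (11.5%). Among genes with an annotated 3′ UTR of at most 150 nucleotides the hexamer was in 13 of 19 ribosomal protein peaks (68.4%) and in 60 of 215 peaks of genes outside the translation set (27.9%). Ending in a run of A was likewise 52.6% against 2.79%. The median log2 ratio in those 2 sets was 0.75 and 0.32, and over peaks with at least 20 reads 0.54 and 0.02. These shares are descriptions of peaks in 1 table, and what sets them was not tested. Neither comparison matches position and length together. By position, the genes compared had a median annotated 3′ UTR of 71.0 nucleotides for the ribosomal proteins and 1034.5 for the others. By length, the peaks of other genes started at a median of nucleotide 233, past the limit of 150, against 11 for the ribosomal proteins. Of those 215 peaks of other genes, 39 sat before the stop codon of protein-coding transcripts, against 2 of the 19 ribosomal protein peaks.

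Outside the cytosolic ribosome the hexamer was in 4 of 6 elongation factor peaks (66.7%), though in Eef2 peak 2 it lay in the flank. The hexamer was in 6 of 13 mitochondrial ribosomal peaks (46.2%) and 12 of 42 initiation factor peaks (28.6%). In the Eif-named regulators it was in 1 of 31 peaks (3.23%).

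**Figure D4:**
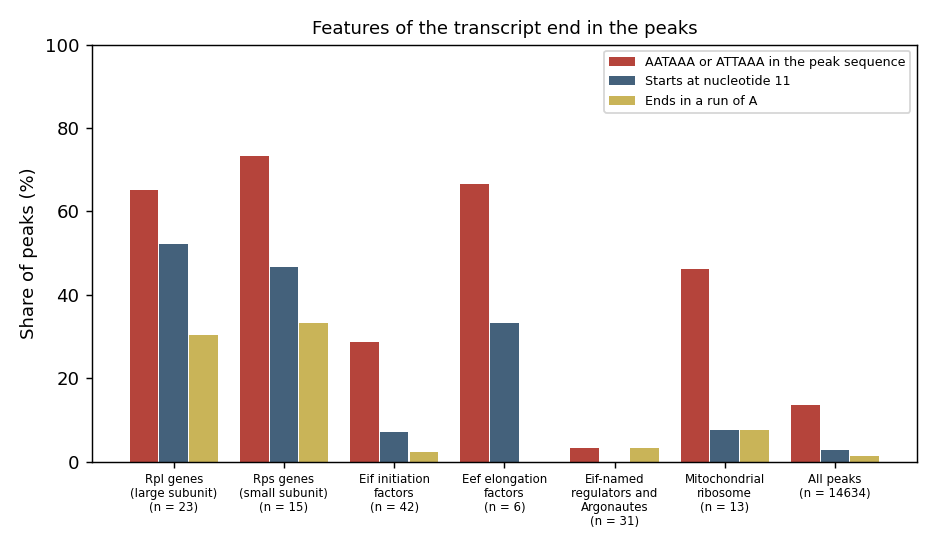
Share of peaks in percent, by class, that hold AATAAA or ATTAAA (red), start at nucleotide 11 of the 3′ UTR (blue) or end in a run of at least 7 A (yellow). All 3 bars are taller in both ribosomal protein classes than in all peaks, where they stand at 13.7%, 2.84% and 1.41%.

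Elongation factors had few peaks, and most of their reads lay in that of Eef1b2. Eef1b2, the exchange factor that reloads eEF1A with GTP, had 1 peak of 30 nucleotides with 281 wild-type and 225 knockout reads (log2 ratio 0.32), or 1688 reads per 100 nucleotides, above Rpl13. Eef2, the GTPase of translocation, had 55.1 and 39.2 over 3 peaks. Eef1a1, which brings aminoacyl-tRNA to the ribosome, had 42.5 and 49.7 in a peak whose core sequence has an exact copy in another gene, so its reads may be shared. Eef1d, a further part of the exchange complex, had 10.1 wild-type reads and a knockout value listed at 0. The median over the 6 peaks was 0.48, and 0.14 over the 4 with at least 20 reads, and the smallest p in the authors' deposited table was 0.328.

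Among initiation factors the reads gathered in Eif4g2. This gene encodes DAP5, a relative of eIF4G that lacks the site for the cap-binding protein. Its 9 peaks held 337 wild-type and 297 knockout reads. Peaks 4, 5 and 6, within 152 nucleotides of the 3′ UTR (346 to 497), held 93.2% of them, and none of the other 6 peaks reached 20 reads. The 3 peaks are those whose windows are printed above. Peak 4, with the miR-17 match, had 127 wild-type and 154 knockout reads (-0.28). Peak 5, with the miR-25/92 match, had 120.4 and 96.3 (0.32), and peak 6, with the let-7 match, had 58.0 and 34.7 (0.73). Neighbouring peaks of this 3′ UTR thus leaned in opposite directions, and the smallest deposited p of the 3 was 0.257 in the authors' deposited table.

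The next genes of the class were Eif2a, which can bring initiator tRNA to the ribosome without eIF2 (90.2 and 96.1 reads over 6 peaks), and Eif4a3, the helicase of the exon junction complex (99.7 and 62.2, log2 ratio 0.67, p = 0.137 in the authors' deposited table). Eif4a1, the helicase of the cap complex, had 55.4 and 61.7, and Eif1b, a relative of the start codon selection factor eIF1, had 61.1 and 39.7. Over the 42 peaks in 20 genes the median was 0.22 (quartiles -0.55 and 1.03), and 0.10 over the 15 with at least 20 reads. The largest ratios at 20 reads or more were those of the eIF3 subunit Eif3f toward wild type (20.3 and 6.94, 1.43) and of the helicase Eif4a2 toward the knockout (peak 2, 5.90 and 17.1, -1.39). The third smallest p of all translation gene peaks was that of Eif4h peak 5, a cofactor of eIF4A (4.98 and 14.4 reads, p = 0.0592 in the authors' deposited table).

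Not every peak labelled 3′ UTR lies in one. Peaks 1 to 5 of Eif2a, both peaks of Rpl10a and the peak of Mrpl13 sit before the stop codon of protein-coding transcripts in GENCODE M21, because the authors' table assigned them to transcripts annotated there as targets of nonsense-mediated decay. These 8 peaks are 8 of 410 such in the table. Eif2a peak 3 (31.1 and 32.4 reads) holds a miR-142-3p match in this coding stretch.

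AGO2 reads also lay on the mRNAs of the Argonautes themselves. Eif2c2, which encodes AGO2, had the most peaks and the most reads of all translation-prefix genes: 18 peaks with 345 wild-type and 318 knockout reads (log2 ratio 0.12). It ranked 216 of 4165 genes by reads, where Eif4g2 ranked 229 and Rpl13 ranked 239. Peaks 16, 17 and 18 lie within 129 nucleotides of the 3′ UTR (5109 to 5237, of an annotated length of 11064) and held 63.2% of the reads. Peak 16, with an 8-letter match to miR-181 and a 7-letter match to miR-142-3p, had 82.0 wild-type and 101 knockout reads (-0.30). Its miR-181 match begins in the flank before the peak. Peak 17, with the let-7 match, had 99.6 and 66.0 (0.59), and peak 18, with none of the searched matches, had 41.2 and 28.4 (0.52).

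Further upstream in the Eif2c2 3′ UTR the ratios spread wider. Peak 3, with a miR-15/16 match, had 14.8 wild-type and 38.1 knockout reads (-1.31, p = 0.465 in the authors' deposited table), and peak 7 had 17.4 and 3.59 (2.00, p = 0.784 there). Eif2c1 (AGO1) had 29.3 and 46.9 reads over 2 peaks, the larger of which holds overlapping matches to miR-17 and miR-19. Eif2c3 (AGO3) had 35.3 and 18.1 over 4 peaks. The 24 peaks of the 3 Argonaute genes had a median ratio of 0.44, and 14 had more reads in wild type. Over the 9 of them with at least 20 reads the median was -0.30, with 4 of 9 toward wild type.

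**Figure D5:**
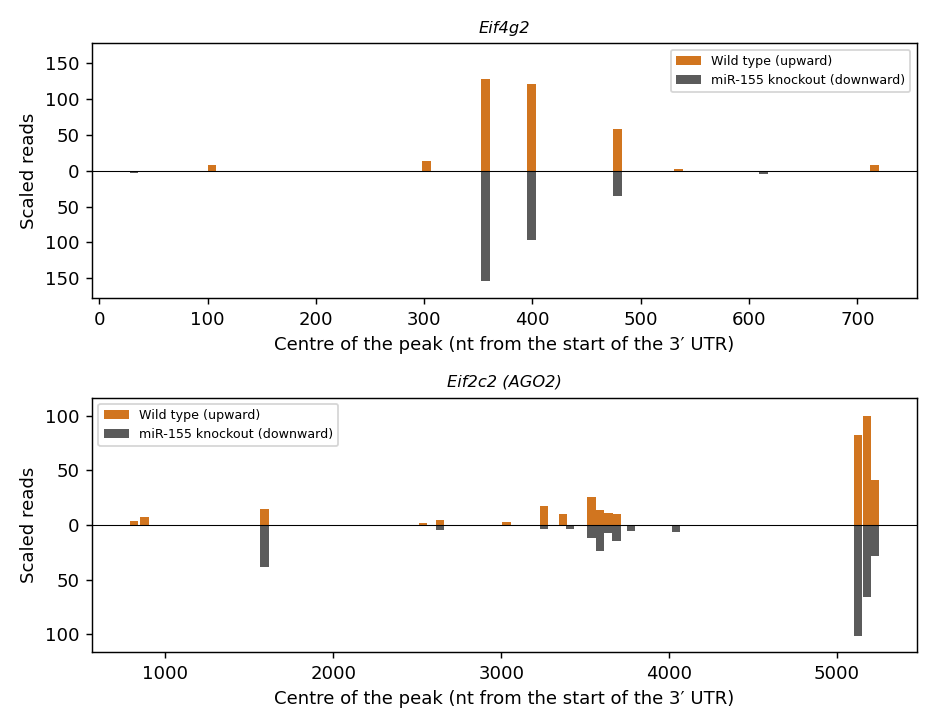
Scaled reads of each peak of Eif4g2 (top) and Eif2c2 (bottom) at its centre along the 3′ UTR, upward for wild type and downward for the knockout. The reads of Eif4g2 stand between nucleotides 346 and 497, and those of Eif2c2 are highest between 5109 and 5237, with similar heights in both genotypes.

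The other regulators carried fewer reads. Eif4enif1, which carries eIF4E into the nucleus and into processing bodies, had 55.0 and 46.3 over 4 peaks, with a miR-23 match in its most-read one (32.2 and 30.3). Eif2ak3, the kinase that shuts down initiation during endoplasmic reticulum stress, had 7.30 and 24.4 over 2 peaks, the second of them listed at 0 in wild type with 12.6 reads in the knockout (p = 0.947 in the authors' deposited table).

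Of 78 protein-coding genes with the prefix of the mitochondrial ribosome in GENCODE M21, 12 had a peak (15.4%), against 18.7% of all 21923 protein-coding genes. The share was 35.2% for the cytosolic ribosomal proteins (31 of 88) and 43.5% for initiation factors (20 of 46). All annotated genes are counted, expressed in these cells or not, so these shares do not compare binding among expressed genes. The 13 peaks, in 11 genes by the authors' symbols, had a median ratio of -0.11, and the 7 with at least 20 reads one of 0.16. Mrpl18, a 5S rRNA-binding protein, had 56.4 and 36.4 reads, Mrps6 had 36.2 and 50.1 over 2 peaks, Mrpl19 had 27.5 and 24.4, Mrpl44 had 22.1 and 19.1 and Mrpl30 had 12.6 and 14.6. In Mrps6 the difference lay in peak 1, which holds the 8-letter miR-15/16 match. Its downstream neighbour, peak 2 at nucleotides 80 to 114, had 30.9 wild-type and 33.4 knockout reads.

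Matches to microRNAs known from T cells were counted over 17 families. In all, 35 of 130 peaks (26.9%) held a match of 7 or 8 letters to at least 1, against 36.9% of all peaks. The share was 21.1% for the cytosolic ribosomal proteins (8 of 38), 0 of 6 for elongation factors, 33.3% for initiation factors (14 of 42) and 37.5% for the Argonautes (9 of 24). The 35 peaks had a median log2 ratio of 0.10, with 20 higher in wild type. By family there were 4 peaks each for miR-25/92, miR-15/16, miR-21 and miR-27, 3 each for miR-17, miR-181, miR-30 and miR-23, 2 each for let-7, miR-19, miR-142-3p, miR-142-5p, miR-29 and miR-26, 1 for miR-146 and 0 for miR-24 and miR-155. The share of the 130 peaks was 3.08% for miR-21 against 1.60% of all peaks, 3.08% for miR-25/92 against 2.77%, and 3.08% for miR-15/16 against 4.58%. These counts include the 6-nt flanks. Without them the count fell to 1 each for miR-181 and miR-142-5p and to 3 each for miR-15/16 and miR-27. The other families kept their counts.

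Some matches coincide with other features. In Rpl13 the miR-25/92 match TGCAATA and the polyadenylation signal share 4 letters, so the most-read ribosomal protein peak cannot be assigned to either by its letters. Rps14 holds a miR-21 match. In Rpl15 peak 1 (34.9 and 20.6 reads), by contrast, the 8-letter miR-25/92 match printed above lies in a peak without the hexamer, beside a 7-letter match to miR-27. The most-read peaks with matches to the remaining families were those of Eif4a3 for miR-27, Eif3f for miR-142-5p, Eif2c2 peak 13 for miR-30 (9.67 and 14.8), Eif2s3y, the Y-linked copy of an eIF2 subunit, for miR-26 (13.3 and 7.13), and Mrpl30 for miR-146. In Eif4a3 and Eif3f the match lies mostly in the flank after the peak. A match is a description of the letters in the peak and does not show which microRNA was present.

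Peaks of the same gene did not always lean the same way. Of 22 translation genes with more than 1 peak, 11 had peaks with ratios of both signs (50%), against 74.6% of such genes in the whole table. The 2 shares are not matched for peak number, on which the occasion for both signs depends. The translation genes had 1.78 peaks per gene, against 3.51 over all genes. Summed per gene, 47 of the 73 genes had more reads in wild type and 25 more in the knockout, with a median ratio of 0.20, against 0.13 over all genes.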

How the data were processed

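AGO2 HITS-CLIP libraries of activated CD4+ T cells were grouped by genotype from the labels, 12 wild type and 12 miR-155 knockout. Bowtie 0.12.7 and mm9 are named in the submitters' processing notes; the sources used here do not name the peak caller, the scaling, how duplicate reads were handled or which test gave the p-values. Per the file headers, the authors' deposited table holds log2 reads for each genotype, their log2 ratio and a p-value per peak. The difference of the 2 genotype columns matched the ratio column (tolerance 6e-05), and scaled reads were computed as 2 to the power of the deposited log2 value, minus 1.

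Adjusted p-values are Benjamini-Hochberg values from the deposited p-values of all 14634 peaks (SciPy 1.17.1), at a threshold of 0.05. No test across libraries was possible on pooled values, so medians and counts are descriptions. The labels call each library a biological replicate. Whether the replicates are separate mice is not stated, and the p-values may still measure technical spread. Sequences carried 6 nt of flank on each side in 14608 peaks and in all 130 of the translation genes. MicroRNA matches are 8mer, 7mer-m8 and 7mer-A1 on the mRNA strand, for 17 families. MiR-150 was not searched. Peaks were placed on GRCm38 by exact match to GENCODE M21 transcripts, which placed 14456 of all peaks and 128 of 130, and no mm9 coordinate was used. Annotated 3′ UTR lengths are medians over a gene's protein-coding transcripts. Where M21 renamed a gene, the annotated gene counts follow its symbols. Scripts were tested on simulated data.

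Members and lists were chosen with earlier results of these data known. Named are the 5 most-read genes of each class, the 10 peaks with the smallest p, the 10 highest and 10 lowest ratios at 20 reads or more, taken 1 per gene, of which the text prints the extremes, the most-read peak of each microRNA family, and, of the further genes, those with a called peak and the 5 most read. Rpl22, Rpl26, Eif5b, Rps19bp1, Mrpl13 and Eif4enif1 peak 2 among others were named after their values were seen. A few of the genes this rule names are not reported here; their peaks remain in the class counts and medians.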

Additional observations from a re-analysis of the deposited data

How the results depend on the processing

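No paired analysis was possible because the table pools the libraries of each genotype, so no replicate block or left-out library could be fitted. The counts of 0 translation gene peaks lower and 0 higher in the knockout were the same at adjusted p thresholds of 0.01 and 0.1, with at least 10 scaled reads, with Bonferroni adjustment and over the 98 peaks with reads in both genotypes. The 0 matches to miR-155 were the same without the flanks and with the 6mer counted. The median log2 ratio of the 130 peaks, 0.32, moved to 0.15 with at least 20 scaled reads and to 0.12 when centred on all peaks. It lay between 0.22 and 0.32 without a pseudocount, with at least 10 reads, for ribosomal proteins and factor subunits only and, in alternatives chosen after seeing the data, without peaks copied in another gene, before a stop codon or starting at nucleotide 11. Also chosen after seeing the data, the large-subunit median of 0.75 was 0.43 with at least 20 reads, 0.55 when centred and 0.75 without a pseudocount. Of 71 alternatives for the summed ratios of 29 genes, 52 moved by less than 0.1 and 2 changed sign, both on leaving out the most-read peak: Eif2a to 0.32 and Mrpl44 to -2.32, the latter from 1 peak listed at 0 in wild type, where the pseudocount sets the value. Depth per library is unknown.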
